A study of Mus musculus with 64 samples.

Results

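The Ly6 genes *Ly6i*, *Ly6a*, *Ly6e* and *Ly6c1*, and the IFITM genes *Ifitm1*, *Ifitm2*, *Ifitm3* and *Ifitm6*, were followed in retinal microglia after an AAV2 injection. These 8 of the 25239 genes counted were taken by symbol. They were chosen by measured values of these libraries, since the counts of *Ly6i* and *Ifitm3* had been seen to be higher at day 12 than in naive eyes. The day 12 levels are therefore given as a description, and tests are given only for day 28, for ages and for sexes. Each library held 600 microglia sorted from a single retina of a Cx3cr1CreER:R26-tdTomato +/- mouse on a C57BL/6J background. In these mice tamoxifen, given as eye drops, switches on tdTomato in cells with an active *Cx3cr1* promoter, which blood monocytes also use. The mice were left for weeks after the drops, a wait meant to make the label more specific to microglia, and cells with a high tdTomato signal were sorted. Whether monocytes that entered later carried the label was not tested. Eyes were uninjected (naive) or were collected 12 or 28 days after an intravitreal injection (IVT) of 1E10 gc/eye of AAV2 that carried no transgene but held a TLR9-inhibiting oligonucleotide sequence. Naive eyes had no needle or buffer injection, so the vector and the injection cannot be told apart in these libraries.

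The animals were 3, 9 or 18 months old and of both sexes, and all groups shared the genotype and the sort. Naive, day 12 and day 28 eyes gave 7, 8 and 7 libraries at 3 months, 5, 7 and 7 at 9 months, and 7, 7 and 7 at 18 months. These 62 libraries came from 32 female and 30 male retinas, collected on 2 days (27 and 35 libraries), with both days in every group. The p-values measure the spread between retinas of separate mice, since per the study's methods the other eye of each animal went to flow cytometry or staining. Levels are CPM, each gene's batch-corrected count from the authors' table divided by the library's total and scaled to a common size of 1000000. The totals ran from 1468478 to 9836173, so that 3 counts, the floor used here, were worth 0.305 to 2.04 CPM. Of 64 libraries of the series, 1 was not in the corrected table and 1 was left out by the rule that chose the genes, and both carried sex-linked transcripts that went against their labelled sex. One 18-month male library, replicate 4 of day 28, carries day 28 in its title but day 12 as its time point, and was kept at day 28. The sorted cells carried the microglial label in their RNA: all 10 microglial markers fixed for the check, among them *P2ry12*, *Tmem119* and *Cx3cr1*, were detected at each day.

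Ly6 proteins are small surface proteins held in the outer leaflet of the membrane by a lipid anchor, and many of their genes lie side by side on mouse chromosome 15. *Ly6a*, known as Sca-1, is induced by interferons and is the receptor that engineered AAV capsids of the PHP.B group use at brain endothelium, a use not known for AAV2. IFITM proteins are interferon-induced membrane proteins that hinder the fusion of enveloped viruses with cell membranes, IFITM3 mainly in endosomes and IFITM1 mainly at the cell surface.

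The members sat in both clusters on GRCm38. *Ly6e* lies at chr15:74955025-74959904, *Ly6i* at chr15:74979534-74983434, *Ly6a* at chr15:74994877-74998031 and *Ly6c1* at chr15:75044018-75048920. *Ifitm2* (chr7:140954837-140959686), *Ifitm1* (chr7:140967429-140969827), *Ifitm3* (chr7:141009590-141010744) and *Ifitm6* (chr7:141015812-141016892) follow each other on chromosome 7. Because interferon factors bind near transcript starts, a promoter window of each IFITM member is shown, on the gene's own strand. Each runs from 250 bases before to 30 after a RefSeq transcript start (GRCm38.p6). Capitals mark matches to the core of the interferon-stimulated response element (ISRE), which is GAAA, any 2 bases and GAAA, and to the gamma-activated site (GAS), which is TTC, any 3 bases and GAA, each searched on both strands.
Ifitm1: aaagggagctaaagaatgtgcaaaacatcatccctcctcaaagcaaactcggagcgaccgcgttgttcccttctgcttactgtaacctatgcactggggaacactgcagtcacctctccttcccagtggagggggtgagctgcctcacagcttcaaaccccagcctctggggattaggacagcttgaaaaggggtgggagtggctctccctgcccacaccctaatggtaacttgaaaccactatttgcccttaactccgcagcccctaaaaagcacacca
Ifitm2: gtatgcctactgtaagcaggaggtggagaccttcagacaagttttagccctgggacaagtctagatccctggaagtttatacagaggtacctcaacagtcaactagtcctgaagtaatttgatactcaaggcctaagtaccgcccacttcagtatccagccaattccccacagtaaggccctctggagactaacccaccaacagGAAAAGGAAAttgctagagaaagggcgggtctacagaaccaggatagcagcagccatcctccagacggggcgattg
Ifitm3: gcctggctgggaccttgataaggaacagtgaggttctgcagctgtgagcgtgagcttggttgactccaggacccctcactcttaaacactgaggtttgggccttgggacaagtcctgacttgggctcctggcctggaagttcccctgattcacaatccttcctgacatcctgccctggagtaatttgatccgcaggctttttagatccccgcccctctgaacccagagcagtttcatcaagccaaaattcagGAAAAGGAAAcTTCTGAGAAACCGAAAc
Ifitm6: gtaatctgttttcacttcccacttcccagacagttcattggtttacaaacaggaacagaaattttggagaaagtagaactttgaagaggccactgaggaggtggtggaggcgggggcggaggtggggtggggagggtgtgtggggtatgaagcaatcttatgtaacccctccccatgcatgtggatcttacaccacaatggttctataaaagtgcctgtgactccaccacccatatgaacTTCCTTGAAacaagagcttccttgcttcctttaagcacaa

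These windows span chr7:140967826-140968105 (plus strand) for *Ifitm1*, chr7:140955932-140956211 (minus) for *Ifitm2*, chr7:141010715-141010994 (minus) for *Ifitm3* and chr7:141016863-141017142 (minus) for *Ifitm6*. *Ifitm3* held 2 ISRE cores, at bases 3 to 12 and 20 to 29 of the transcript, with a GAS match at bases 14 to 22 that overlapped the second of them. *Ifitm2* held 1 ISRE core, from base -46 to base -37, and *Ifitm6* 1 GAS match, from base -10 to base -2. Neither motif was found in the window of *Ifitm1* or in the windows of *Ly6c1*. The windows of *Ifitm1* and *Ifitm2* lie wholly within the gene spans given above, at inner starts. The upstream ends of both genes were not searched, so their motif counts hold for these windows alone. The starts used for *Ly6c1* also lie inside its span. Among 32851 mouse promoter windows of 300 bases, which reach 50 bases past the start, 3.44% held an ISRE core, 0.225% held 2 or more and 8.3% held a GAS match. The windows of *Ly6i*, *Ly6a* and *Ly6e* were not used here.

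**Figure D1:**
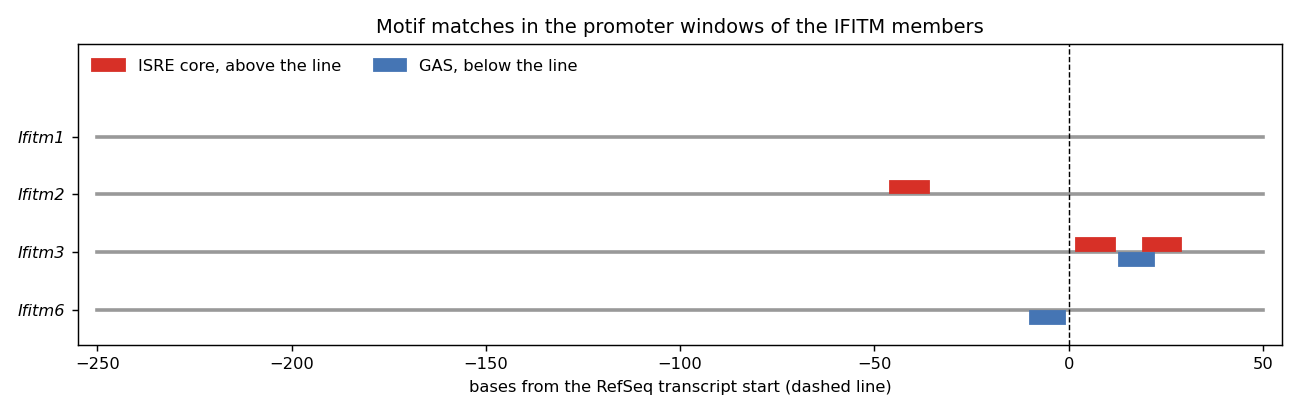
Matches to the ISRE core (red, above the line) and to GAS (blue, below the line) in the promoter windows of the IFITM members, drawn by distance in bases from the RefSeq start (dashed line). *Ifitm3* holds 2 ISRE cores and 1 GAS match just after its start. *Ifitm2* holds 1 ISRE core before its start, *Ifitm6* 1 GAS match before its start and *Ifitm1* none. The windows of *Ifitm1* and *Ifitm2* lie inside the genes, not at their upstream ends.

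Detection set what could be compared. *Ly6e* (1075312 counts in all), *Ifitm3* (321318) and *Ifitm2* (23800) had counts in 62 of 62 libraries, and *Ly6a* (177818) and *Ly6i* (51564) in 61. *Ifitm6* had 538 counts in 46 libraries and *Ifitm1* 1146 counts in 28. *Ly6c1*, which endothelial cells express strongly, had 24 counts in 13 libraries, at most 4 in any library and none in naive microglia, and did not pass the filter on low counts in any fit. The other 7 members passed at each age. Reads of 75 bases can fall on near copies: 42.0% of the 75-base words of *Ifitm2* transcripts also occur in pseudogene transcripts, so its counts are less certain. For *Ly6c1* 19.0% of words are shared, mostly with *Ly6c2*, for *Ly6a* 6.33%, and for each of the other members under 1%.

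*Ly6i*, a Ly6 gene whose product has little described function, was the member whose naive and injected libraries were apart at each age and both days. At 3 months its level was 2.62 to 11.02 CPM in naive libraries (median 4.71), 287 to 597 CPM at day 12 (median 434) and 54.4 to 238 CPM at day 28 (median 110). All 15 libraries of injected eyes at this age stood above all 7 naive ones. At 9 months the 5 naive libraries had 2.31, 3.17, 4.49, 5.38 and 12.7 CPM of *Ly6i*, against 76.0 to 887 CPM at day 12 (median 377) and 76.2 to 341 CPM at day 28 (median 157). At 18 months it ran from 0 to 13.3 CPM in naive libraries (median 5.11), from 22.8 to 483 CPM at day 12 (median 347) and from 47.1 to 314 CPM at day 28 (median 196). Naive and injected libraries did not overlap at any age, while day 12 and day 28 libraries overlapped at 9 and 18 months and not at 3 months.

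*Ly6a* levels were spread more widely at day 12. At 3 months it was at 12.9 to 64.2 CPM in naive libraries (median 34.8), 243 to 2063 CPM at day 12 (median 1022) and 78.0 to 335 CPM at day 28 (median 130). At 9 months naive libraries had 12.95, 16.7, 29.4, 33.2 and 74.6 CPM of *Ly6a*, day 12 libraries 157 to 2900 CPM (median 1596) and day 28 libraries 56.5 to 524 CPM (median 252). At 18 months the range was 0 to 93.1 CPM in naive libraries (median 24.5), 33.5 to 4142 CPM at day 12 (median 2450) and 162 to 356 CPM at day 28 (median 275). Naive and day 28 libraries did not overlap at 3 and 18 months, and at 9 months 6 of 7 day 28 libraries were above every naive one. At day 12 all libraries were above every naive one at 3 and 9 months, and 5 of 7 at 18 months.

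*Ly6e*, a Ly6 gene known for hindering the entry of coronaviruses, was already abundant in naive libraries and differed over a short range. At 3 months it was at 2279 to 3608 CPM in naive libraries (median 2834), 3148 to 6003 CPM at day 12 (median 5023) and 3287 to 4576 CPM at day 28 (median 4076). The 9-month naive libraries had 2039, 2587, 2631, 3097 and 4257 CPM, against 3576 to 6568 CPM at day 12 (median 4535) and 3230 to 4702 CPM at day 28 (median 4027). At 18 months it ran from 2216 to 2998 CPM in naive libraries (median 2587), from 3214 to 7076 CPM at day 12 (median 6379) and from 3494 to 4437 CPM at day 28 (median 4222). The 18-month libraries of injected eyes all stood above the naive ones at both days, whereas at 3 and 9 months the groups overlapped.

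*Ifitm3* overlapped with naive libraries at each age and day. Its 3-month level was 208 to 550 CPM in naive libraries (median 458), 469 to 1861 CPM at day 12 (median 1185) and 348 to 828 CPM at day 28 (median 487). The 9-month naive libraries had 168, 452, 467, 519 and 1011 CPM of *Ifitm3*, day 12 libraries 308 to 4111 CPM (median 1957) and day 28 libraries 466.3 to 1281 CPM (median 803). At 18 months it was at 341 to 719 CPM in naive libraries (median 385), 455 to 16181 CPM at day 12 (median 2445) and 339 to 1198 CPM at day 28 (median 736). A single library, female replicate 4, held the 16181 CPM, and the next highest 18-month day 12 library had 4023 CPM.

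**Figure D2:**
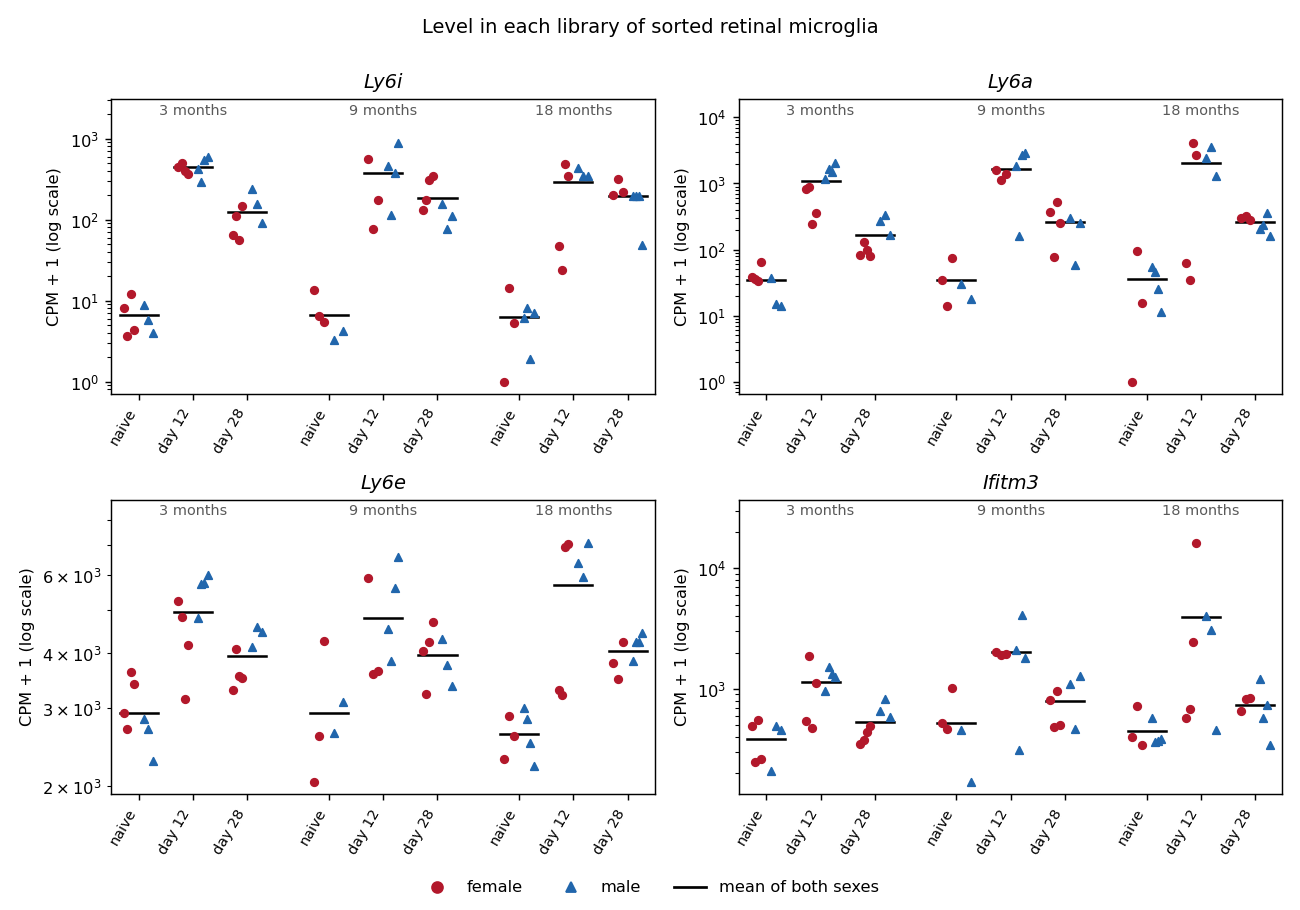
Level of *Ly6i*, *Ly6a*, *Ly6e* and *Ifitm3* in each library, as CPM + 1 on a log axis, by age and day, with females as red circles, males as blue triangles and the mean of both sexes as a black line. *Ly6i* in injected eyes lies above every naive library of its age, while *Ifitm3* overlaps with naive libraries at each age.

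*Ifitm2*, the neighbour of *Ifitm1*, stayed within a narrow range. At 3 months it was at 36.2 to 88.5 CPM in naive libraries (median 46.5), 53.7 to 115 CPM at day 12 (median 78.1) and 51.9 to 101 CPM at day 28 (median 82.5). At 9 months naive libraries had 43.0, 49.4, 51.0, 80.7 and 97.9 CPM, day 12 libraries 69.7 to 240 CPM (median 145) and day 28 libraries 61.4 to 122 CPM (median 99.1), and at 18 months the medians were 40.9, 102 and 86.0 CPM. The groups overlapped at each age.

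*Ifitm1* was nearly absent from naive microglia: at most 0.334 CPM, with counts in 1 library at 3 months, 1 at 9 months and none at 18 months. At day 12 its median was 2.2 CPM at 3 months, 10.1 CPM at 9 months and 4.37 CPM at 18 months, with highest values of 16.5, 42.2 and 37.2 CPM. The naive groups held 2, 1 and 0 counts of it in all. Against a floor of 3 counts over the naive group, the day 12 means were 37.8-fold higher at 3 months, 121-fold at 9 months and 109-fold at 18 months. At day 28 no library had more than 4.40 CPM, and most had no counts. *Ifitm6*, the last gene of this run on chromosome 7, showed no such order: its mean was 3.23, 1.65 and 1.48 CPM in naive, day 12 and day 28 libraries at 3 months, 1.58, 2.65 and 0.851 CPM at 9 months, and 1.55, 3.93 and 1.17 CPM at 18 months. Its highest level, 14.2 CPM, was in the 18-month female day 12 replicate 4 that also had the highest *Ifitm3*.

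**Figure D3:**
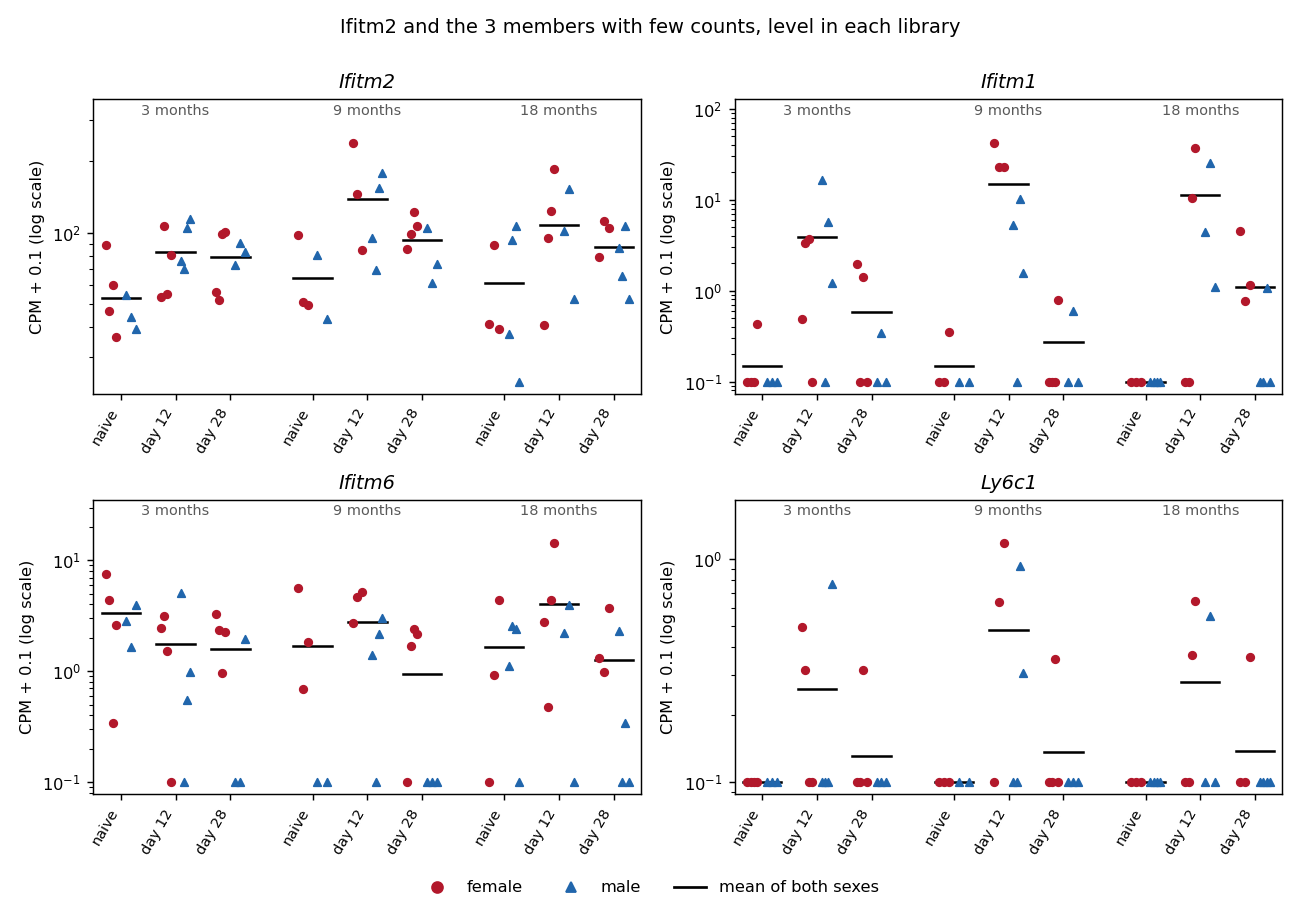
Level of *Ifitm2*, *Ifitm1*, *Ifitm6* and *Ly6c1* in each library, as CPM + 0.1 on a log axis, by age and day, with females as red circles, males as blue triangles and the mean of both sexes as a black line. Points at 0.1 are libraries with no counts, which hold nearly all naive values of *Ifitm1* and most values of *Ly6c1*.

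For day 12 against naive, the contrast behind the choice of genes, the fitted log2 fold changes (mean over the sexes) were as follows. *Ly6i* was 6.38 ± 0.34 (SE) higher at 3 months, 6.42 ± 0.70 at 9 months and 5.95 ± 0.72 at 18 months. *Ly6a* was 5.12 ± 0.32, 5.79 ± 0.75 and 6.15 ± 0.99 higher, in the same order of ages. Smaller log2 fold changes were found for the next 3 members, with 0.90 ± 0.14, 0.77 ± 0.29 and 1.33 ± 0.21 for *Ly6e*, 0.79 ± 0.22, 1.22 ± 0.34 and 1.04 ± 0.37 for *Ifitm2*, and 1.67 ± 0.26, 2.18 ± 0.47 and 3.23 ± 0.64 for *Ifitm3*. Among all genes tested, 10.5%, 15.7% and 11.1% had a log2 fold change above 1 at 3, 9 and 18 months. Groups that did not overlap, with day 12 higher, were seen for 2 members at each age (*Ly6i* with *Ly6a*, *Ly6a* and *Ly6e* at 3, 9 and 18 months) and for 3.56%, 2.69% and 0.857% of all genes. Nothing is read from these counts, since the day 12 rise chose the members.

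At 18 months the day 12 group was split, and the split ran through *Ly6i*, *Ly6a*, *Ly6e* and *Ifitm1*. Female replicates 1 and 2, both collected on the first day, had 45.9 and 22.8 CPM of *Ly6i*, 62.5 and 33.5 CPM of *Ly6a*, and 3293 and 3214 CPM of *Ly6e*. The other 5 libraries, females 3 and 4 and males 1 to 3, had 344 to 483 CPM of *Ly6i*, 1294 to 4142 CPM of *Ly6a* and 5942 to 7076 CPM of *Ly6e*. Of these, male 1 was also collected on the first day. *Ifitm1* had no counts in females 1 and 2 and 0.994 to 37.2 CPM in the others. *Ifitm2*, *Ifitm6* and *Ly6c1* did not follow this split. Nor did *Ifitm3* exactly, with 567 and 674 CPM in females 1 and 2, 455 CPM in male 3 and 2445, 16181, 4023 and 3099 CPM in females 3 and 4 and males 1 and 2. Microglial markers summed to 37189 and 31335 CPM in females 1 and 2, within or near the naive range, and to 11355 to 20609 CPM in the others. At 9 months the lowest day 12 levels of *Ly6a* and *Ifitm3* were in male replicate 2, with 111 CPM of *Ly6i*, 157 CPM of *Ly6a* and 308 CPM of *Ifitm3*. The lowest *Ly6i* level of that group was in female replicate 2, with 76.0 CPM of *Ly6i*, 1145 CPM of *Ly6a* and 1923 CPM of *Ifitm3*.

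Day 28 against naive was not used to choose the members, though it shares the naive libraries with the contrast that was. The question was whether the day 12 levels were still raised at day 28. *Ly6i* rose at each age, by a log2 fold change of 4.54 ± 0.32 (SE; edgeR glmTreat adjusted p = 7.96e-10) at 3 months, 5.29 ± 0.66 (adjusted p = 0.000117) at 9 months and 5.26 ± 0.69 (adjusted p = 0.000658) at 18 months. *Ly6a* rose by 2.51 ± 0.29 (adjusted p = 0.000147) at 3 months and by 3.14 ± 0.64 (adjusted p = 0.0413) at 9 months. At 18 months its log2 fold change of 3.06 ± 0.84 did not pass (adjusted p = 0.254), although all 7 day 28 libraries were above all 7 naive ones. In CPM, the day 28 mean of *Ly6i* was 21.5-fold, 32.9-fold and 36.8-fold its naive mean, and that of *Ly6a* 4.98-fold, 7.83-fold and 7.67-fold.

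The remaining members did not pass the test at day 28, which asked for a log2 fold change beyond 1. The log2 fold changes at 3, 9 and 18 months were 0.61, 0.54 and 0.72 for *Ly6e*, 0.77, 0.62 and 0.64 for *Ifitm2* and 0.60, 0.93 and 0.84 for *Ifitm3*. *Ifitm1*, with most libraries at 0, had adjusted p values of at least 0.953, and *Ifitm6* at 9 months, with no counts in naive or day 28 males, could not give a call. In all, 2 of 7 tested members were called at 3 months, 2 at 9 months and 1 at 18 months, beside 1.0%, 0.752% and 0.521% of all genes tested. Higher levels without overlap were found for 2, 1 and 3 members (*Ly6i* at each age, *Ly6a* at 3 and 18 months, *Ly6e* at 18 months), beside 1.46%, 1.51% and 1.14% of all genes. The median log2 fold change of the tested members was 0.77, 0.93 and 0.84, beside -0.00, 0.03 and 0.04 over all genes.

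The *Ly6i* call at day 28 held at each age within each collection day and with any single library left out. Within females alone at 18 months the *Ly6i* log2 fold change was 5.41 with adjusted p = 0.535, and within males it was 5.13 with adjusted p = 0.000159. The *Ly6a* call at 9 months was less firm: it was lost in 14 of the 19 fits that left out 1 library (adjusted p from 0.00587 to 0.381, log2 fold change from 2.92 to 3.56) and within either collection day. At 3 months the *Ly6a* call held within both collection days (log2 fold change 2.31 and 2.69), but its size was 1.39 in females and 3.63 in males, and the call was lost in females alone and in one fit of all libraries (adjusted p = 0.225). At 18 months the *Ly6a* change passed within either collection day (log2 fold change 7.79 and 3.30) and in males alone (2.97, adjusted p = 0.0128), and in one fit of all ages, though not in the fit of both sexes and days above. In the first-day libraries at 18 months the naive female group was 1 library with no counts of *Ly6i* or *Ly6a*. At 3 and 9 months the fits of either collection day also held groups of 1 library.

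**Figure D4:**
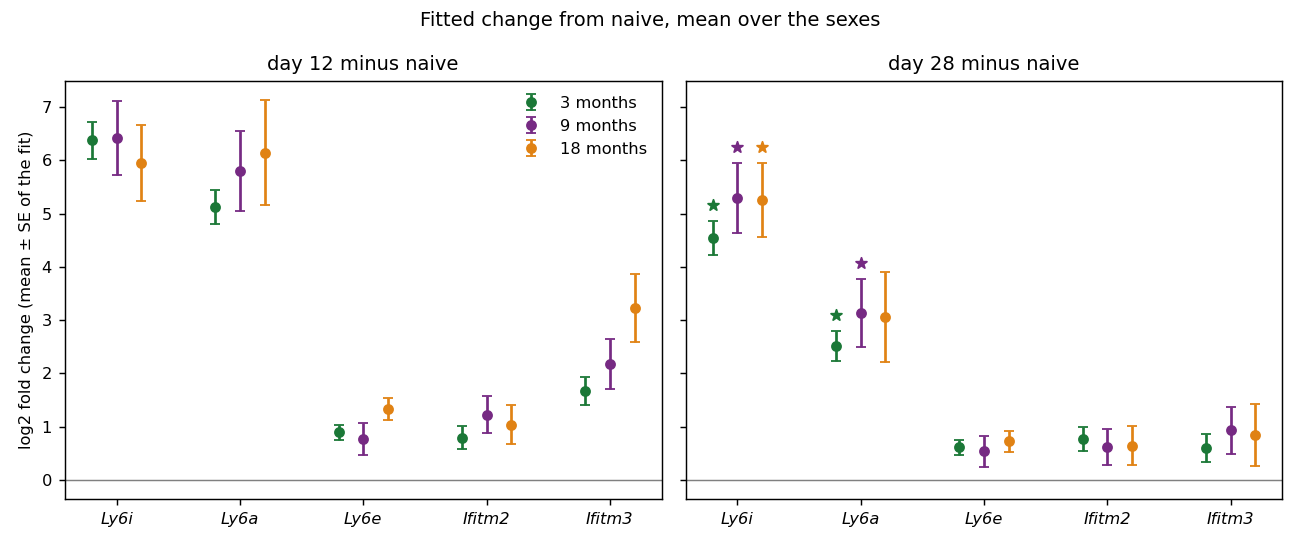
Fitted log2 fold change from naive at day 12 (left) and day 28 (right) for the 5 members with counts in nearly all libraries, by age, with bars for the SE and stars for calls at day 28. *Ly6i* lies near 5 and *Ly6a* near 3 at day 28, and the others lie below 1.

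The members differed in how much of the day 12 level was left at day 28. The day 28 mean of *Ly6i* was 27.6%, 48.9% and 66.9% of its day 12 mean at 3, 9 and 18 months, and that of *Ly6a* 15.1%, 15.6% and 13.01%. *Ly6e* was at 79.5%, 82.1% and 70.8%, *Ifitm2* at 95.7%, 67.6% and 80.8%, and *Ifitm3* at 46.9%, 39.1% and 18.8%. These shares have no test. The 18-month shares rest on few libraries: without female day 12 replicates 1 and 2, left out after the data were seen, they were 49.5% for *Ly6i*, 9.36% for *Ly6a* and 14.1% for *Ifitm3*, and without female replicate 4 the *Ifitm3* share was 39.3%. Without the male day 28 replicate 4 the *Ly6i* share was 75.3%.

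The neighbours *Ly6i* and *Ly6a* had a higher median ratio at day 12 than at day 28. The ratio of *Ly6a* to *Ly6i* CPM within a library had a median of 2.29 (0.620 to 5.86) at day 12 and 1.26 (0.539 to 2.14) at day 28 at 3 months. It was 4.06 (1.41 to 15.1) and 1.73 (0.446 to 2.85) at 9 months, and 5.61 (1.36 to 10.2) and 1.27 (1.02 to 3.43) at 18 months. The ranges of both days overlapped at each age. The ratio is compared between days only, since CPM is not scaled for gene length.

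**Figure D5:**
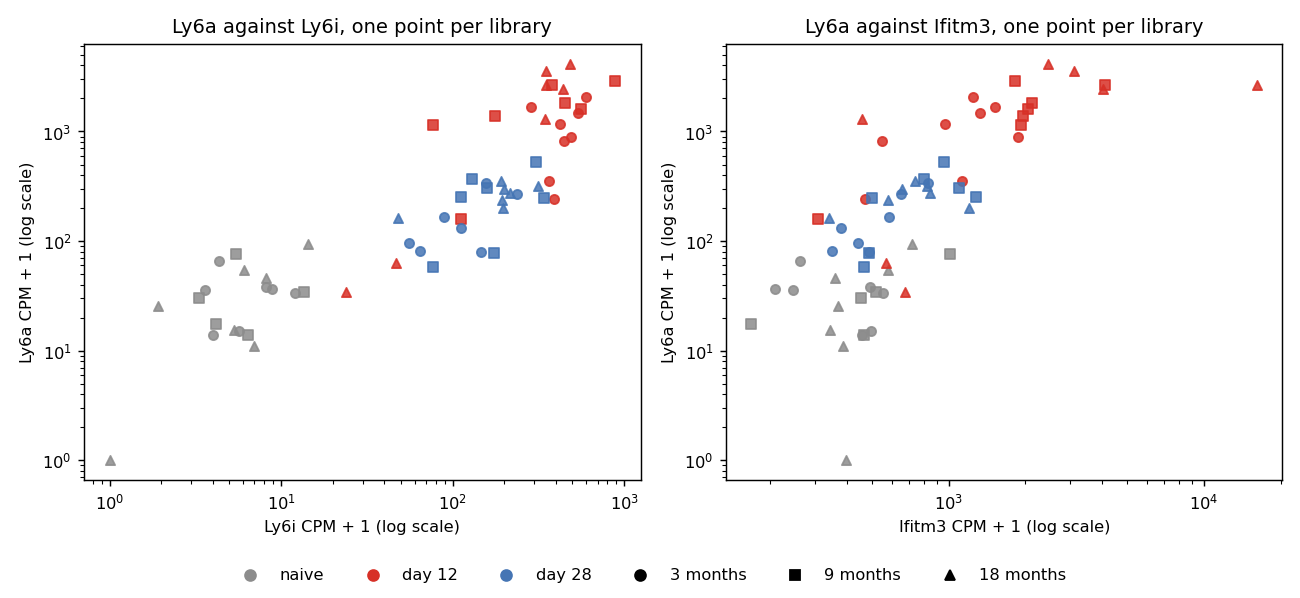
*Ly6a* against *Ly6i* (left) and against *Ifitm3* (right), 1 point per library, as CPM + 1 on log axes, with naive in grey, day 12 in red and day 28 in blue, and the ages as circles, squares and triangles. Over all ages, day 12 and day 28 libraries overlap in part in both *Ly6i* and *Ly6a*, and *Ifitm3* mixes naive with day 28 libraries.

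Ages were compared at each day to ask whether the members' levels changed with age. No member was called for 9 against 3 months (0 of 6 tested in naive, 0 of 7 at day 12, 0 of 5 at day 28; edgeR glmQLFTest, adjusted p under 0.1) beside 0.0%, 2.01% and 0.0% of all genes. For 18 against 3 months the counts were also 0 of 6, 0 of 7 and 0 of 5, beside 0.0651%, 1.68% and 0.22% of all genes. At an unadjusted p under 0.05 there were 1, 1 and 2 members for 9 months and 0, 2 and 2 for 18 months, and DESeq2 called none. Over all genes there were 310 of 12294, 1454 of 11741 and 525 of 11832 for 9 months. For 18 months there were 522, 1591 and 844 of the same totals. In naive microglia the 18 against 3 months log2 differences were -0.11 ± 0.65 (SE) for *Ly6i*, 0.19 ± 0.60 for *Ly6a* and -0.14 ± 0.15 for *Ly6e*.

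*Ifitm3* had the largest age difference at day 12 among the 5 well counted members, with a log2 difference of 1.79 ± 0.61 for 18 against 3 months (adjusted p = 0.173). Its log2 difference was 0.75 without the 18-month female replicate 4, and it was called when 18-month female replicate 1 (adjusted p = 0.0952), female replicate 2 (0.0907) or male replicate 3 (0.0844) was left out. At day 28 the 18 against 3 months log2 differences were 0.65 ± 0.29 for *Ly6i* (adjusted p = 0.665) and 0.74 ± 0.30 for *Ly6a* (adjusted p = 0.60). In females alone they were 1.33 (adjusted p = 0.106) and 1.58 (adjusted p = 0.0701), and in males -0.03 and -0.10. No member was called for the interaction of age with day 12 (0 of 7, beside 0.853% of all genes) or with day 28 (0 of 7, beside 0.0%), with 1 and 0 members at an unadjusted p under 0.05 and none by DESeq2. Over all genes, 1618 and 598 of 12660 had an unadjusted p under 0.05. *Ifitm1* could not give a call in either interaction, since no naive library at 18 months had counts of it.

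Sexes were compared through the interaction of sex with day, the question being whether males and females differed in their change from naive. The levels of *Ly6a* at 3 months are given first. Naive females had 32.3, 34.8, 36.8 and 64.2 CPM of *Ly6a* and naive males 12.9, 14.1 and 35.9 CPM. At day 12 females had 243, 355, 815 and 882 CPM and males 1163, 1481, 1685 and 2063 CPM, and at day 28 females had 78.0 to 130 CPM and males 164 to 335 CPM. Males were higher than females without overlap at both days, and naive males overlapped with naive females. How many of all genes set the sexes apart in this way was not counted. *Ly6a* was also the member with the lowest p in both interactions at this age.

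The change in *Ly6a* was larger in males by a log2 value of 2.36 ± 0.54 at day 12 (adjusted p = 0.142) and of 2.25 ± 0.55 at day 28 (adjusted p = 0.439), neither of which passed. Both rest on the same naive libraries, and at day 12 the first collection day gave 1 of 4 female and 3 of 4 male libraries. The day 12 value was 0.59 within the first collection day and 3.96 within the second, DESeq2 gave an adjusted p of 0.0778, and leaving out female day 12 replicate 1 or 2 gave 0.0988 and 0.0383. The same log2 interaction was 1.43 ± 1.14 at 9 months and 0.47 ± 1.55 at 18 months for day 12. No member was called in the 6 interactions of sex with day (0 of 7 each), beside 0.0583%, 0.00809% and 0.0% of all genes for day 12 and 0.00833%, 0.0% and 0.0% for day 28 at 3, 9 and 18 months. At an unadjusted p under 0.05 there were 2, 1 and 0 members for day 12 and 1, 0 and 0 for day 28, and DESeq2 called *Ly6a* for day 12 at 3 months alone. Over all genes there were 1126 of 12002, 582 of 12364 and 830 of 11907 for day 12. For day 28 there were 566, 614 and 541 of the same totals. *Ifitm1* at 18 months, with no counts in naive libraries, and *Ifitm6* for day 28 at 9 months, with none in naive or day 28 males, could not give a call.

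Some lists of markers of other cells also had a larger change in males at 3 months, while others were near all genes or lower. For the interaction of sex with day 12, 1 of 3 tested monocyte markers, *Plac8*, was called, with a larger change in males, and the median log2 value of the 3 was 6.72. Of 7 tested T cell markers none was called by edgeR or DESeq2, and their median was 3.29. An unadjusted p under 0.05 was found for 4 of them, beside 1126 of 12002 genes. The median was 1.68 over 4 tested endothelial markers and 0.97 over the 18 genes of the interferon list, beside -0.01 over all genes. It was 0.10 over 5 Müller glia markers and -0.05 over 10 microglial markers. The 1 tested pericyte marker had 0.59 and the 1 tested neutrophil marker -2.16. Naive T cell sums at 3 months had a median of 1.29 CPM, near the floor. For day 28 the interferon list had a median of 1.01. The part of these cells and genes in the *Ly6a* difference was not tested.

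Markers of other cells also differed in level between the days. T cell markers (7 of 8 in the table) summed to 0 to 183 CPM in naive, 1.60 to 395 CPM in day 12 and 14.4 to 191 CPM in day 28 libraries, with medians of 1.29, 122 and 72.0 CPM. At day 28, 2, 6 and 0 of 7 tested T cell markers were called higher at 3, 9 and 18 months (1, 6 and 0 by DESeq2). Over all genes tested, 1.0%, 0.752% and 0.521% were called in either direction. The median log2 fold change of the 7 markers was 3.47, 7.08 and 2.98, from naive levels near the floor. Monocyte markers (6 of 6, with *Chil3* at 0 in naive and day 28) summed to 0.226 to 125, 4.66 to 955 and 0.265 to 54.3 CPM, with medians of 13.8, 63.3 and 7.64 CPM. No tested monocyte marker was called at day 28 by edgeR, and DESeq2 called 1 at 9 months. The highest monocyte sum, 955 CPM, was in the 18-month female day 12 replicate 4, the library with 16181 CPM of *Ifitm3*, and the lowest sums at that age and day, 10.7 and 7.98 CPM, were in females 1 and 2. The part of these cells in the members' levels was not tested, and fewer cells of a type and less RNA per cell cannot be told apart in such libraries.

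Endothelial cells are the best known site of *Ly6a* and *Ly6c1* in the nervous system. Their 10 markers summed to 2.08 to 78.4 CPM in naive, 10.9 to 63.3 CPM in day 12 and 31.6 to 150.0 CPM in day 28 libraries, with medians of 26.6, 34.1 and 56.6 CPM. At 3 months the sums did not overlap between naive (7.76 to 32.4 CPM) and day 28 libraries (39.95 to 63.7 CPM). At day 28, 1 of 4 tested endothelial markers, *Flt1*, was called higher at 3 and at 9 months. Over all genes tested, 1.0% and 0.752% were called in either direction. The median log2 fold change of the 4 markers was -0.07, 0.32 and 0.39 at 3, 9 and 18 months. Over all genes it was -0.00, 0.03 and 0.04. The part of endothelial cells in the *Ly6a* levels was not tested. *Cldn5*, *Tie1* and *Esam* were at 0 in all naive libraries and *Slco1a4* and *Emcn* at 0 in all day 12 libraries. At day 28, *Cldn5* and *Slco1a4* were at 0 in all libraries of 3 and 9 months, and *Cdh5* in all of 9 months. *Tie1*, *Esam* and *Emcn* were at 0 in all day 28 libraries of 18 months. *Pecam1*, *Flt1*, *Kdr* and *Ocln* passed the filter. Neutrophil markers (5 genes, *Ly6g* at 0 in naive and day 12) had medians of 0, 0.215 and 0.873 CPM. Photoreceptor markers (6 genes) had medians of 1700, 732 and 1349 CPM, Müller glia markers (5) of 337, 348 and 372 CPM, and pericyte markers (5, *Rgs5* at 0 in naive) of 0, 3.464 and 0.398 CPM. Microglial markers summed to a median of 38866 CPM in naive, 15233 CPM in day 12 and 24069 CPM in day 28 libraries.

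The batch correction itself moved the members by different amounts. In libraries with at least 20 uncorrected counts, the corrected count of *Ifitm3* was 1.28 to 2.01 times the uncorrected one on the first collection day and 0.588 to 0.903 times in 34 of the 35 libraries of the second. In the other, the 18-month female day 12 replicate 4, the count of 59198 was the same in both tables. Its uncorrected level, 14537 CPM, was also the highest of its group, where the others had 348 to 4969 CPM. *Ly6e* went the other way, at 0.839 to 0.887 times on the first day and 1.10 to 1.16 times on the second.

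Other genes of both families were mostly below the filter. Of 31 other Ly6 family genes listed, 29 were in the table and 9, 8 and 7 were tested at 3, 9 and 18 months. None was called at day 28 by edgeR (2, 2 and 1 at an unadjusted p under 0.05), and DESeq2 called 1, *Ly6c2*, at 9 months. Their median log2 fold changes were 0.97, 1.34 and 0.31. *Ly6k*, a Ly6 gene best known from germ cells, had log2 fold changes of 5.002 ± 1.58 (adjusted p = 0.313), 2.61 ± 1.13 (adjusted p = 1.0) and 4.32 ± 1.12 (adjusted p = 0.150) at day 28, with 7.91 to 97.6 CPM in 18-month day 28 libraries against 0 to 11.9 CPM in naive ones. The uPAR gene *Plaur*, the complement regulator *Cd59a*, *Ly6m*, *Ly6g6d* and *Ly6g6e* also passed the filter at each age, with log2 fold changes from -1.99 (*Ly6m* at 3 months) to 1.67 (*Ly6m* at 9 months) at day 28, none of which passed the test.

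*Ly6c2*, a marker of inflammatory monocytes and also in the monocyte list, had a log2 fold change of 2.34, 7.53 and -1.66 at day 28 (adjusted p = 0.064 at 9 months). Of the 4 other IFITM genes listed, 3 were in the table and *Ifitm10* was tested, with log2 fold changes of -1.11, -1.10 and -1.46 at day 28 that did not pass (0, 0 and 1 at an unadjusted p under 0.05, and none by DESeq2). It was also lower at day 12, by description, with log2 fold changes of -2.27, -2.71 and -1.60.

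Genes of the interferon response were listed as a frame for both families. The median log2 fold change of the 18 listed genes at day 28 was 0.62, 0.58 and 0.57, near that of *Ly6e*, *Ifitm2* and *Ifitm3* and below that of *Ly6i* and *Ly6a*. The same list had medians of 1.77, 1.93 and 2.34 at day 12.

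The likeness of patterns was described by Pearson's r over the 18 group means of log2 CPM, among 11542 genes, with no test, since the groups share collection days and the main course by day. The genes most like *Ly6i* were *C3* (r = 0.982), *Cxcl9* (0.980) and *Gpr18* (0.980). Those most like *Ly6a* were *Zbp1* (0.987), *Iigp1* (0.979) and *Acod1* (0.975), and those most like *Ly6e* were *Il2rg* (0.966), *Cd72* (0.957) and *Tgtp2* (0.955). *Ifitm3* was nearest to *Slfn2* (0.967), *Xaf1* (0.959) and *Tspo* (0.948), and *Ifitm2* to *Ehd1* (0.928), *Cd244a* (0.918) and *Klrb1b* (0.900). For the low members these were *Atad2* (0.931), *Diaph1* (0.929) and *Cenpw* (0.927) with *Ifitm1*, and *Klhl26* (0.766), *Tmem167* (0.762) and *Mbd1* (0.746) with *Ifitm6*. Among the members, r was 0.954 for *Ly6a* with *Ly6e*, 0.931 for *Ly6i* with *Ly6a* and 0.830 for *Ifitm2* with *Ifitm3*, while *Ifitm6* reached at most 0.468 with any of them.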

How the data were processed

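RNA from 600 sorted retinal microglia per library was amplified with the SMART-Seq v4 kit, made into Nextera XT libraries and sequenced as single-end reads of 75 bases. The authors converted the reads with bcl2fastq 2.20, aligned them to mm10 with STAR 2.7.8a and counted them per RefSeq gene with featureCounts. The deposited tables hold raw counts for 64 libraries and counts for 63 after ComBat_seq, run by the authors in R 4.2.2 with the collection day as batch. That step scaled the same gene up on 1 day and down on the other, so uncorrected counts were an alternative.

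CPM was taken over each library's total of 25239 genes. In edgeR 4.0.16 (R 4.3.3) corrected counts were scaled by TMM, filtered by filterByExpr and fitted by quasi-likelihood with 1 mean per group. Days and sexes were fitted within each age, ages within each day, and age by day over the 3- and 18-month libraries. For days, glmTreat asked for a log2 fold change beyond 1, with a Benjamini-Hochberg adjusted p under 0.05, and ages and interactions were tested by glmQLFTest with an adjusted p under 0.1. P-values were adjusted over all genes tested. Folds over a group whose mean was at or below the worth of 3 counts over that group used this floor. Likeness used log2 CPM with a prior count of 2. The fits were tested on simulated data.

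The members and the lists were chosen with earlier results of these data known. The text names the 8 members, the other genes of both families that passed the filter at each age, and the 3 genes most like each member that passed it. Calls within the interferon response list and the B cell markers are not reported here. Promoters are those of RefSeq (GRCm38.p6), with *Ifitm1*, *Ifitm2*, *Ifitm3*, *Ifitm6* and *Ly6c1* matched. The 79 pairs of libraries within a group held no identical pair. Replicate numbers did not pair libraries across groups. Alternatives were DESeq2 1.42.0, its size factors, no filter, uncorrected counts, a replicate block, 1 sex, 1 collection day, a plain quasi-likelihood test, 1 fit of all libraries, other uses of the libraries with doubtful labels or levels, and each library left out in turn. No column of the deposited tables was left unmapped.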

Additional observations from a re-analysis of the deposited data

Results flagged for a closer look

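Of 61 sets of 4 or more libraries of 1 group with a detected member, 6 held a library whose gap to the next was beyond Dixon's limit, and chance gives about 1 in 20. In 18-month females at day 12, replicate 4 had 16181 CPM of *Ifitm3*. Among 18-month males at day 28, *Ly6i* was lowest in replicate 4, at 47.1 CPM, the library with 2 day labels. In the same group, *Ifitm1* was highest in replicate 3, at 0.959 CPM, and *Ifitm6* in replicate 1, at 2.19 CPM. *Ifitm1* had counts in only 1 of these 4 libraries, so its gap was bound to pass the limit, and *Ifitm6* in 2. In 18-month naive males, *Ifitm3* was set apart in replicate 1, at 576 CPM. In 3-month naive females, *Ly6a* was highest in replicate 4, at 64.2 CPM.

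Both libraries outside the comparisons held members above the highest naive library of their age in uncorrected CPM. The library labelled male, 9 months, day 28, replicate 1 had 192 CPM of *Ly6i* (highest naive 8.17), 216 CPM of *Ly6a* (112.0) and 4114 CPM of *Ly6e* (3578). It had 255 CPM of *Xist* and no counts of the Y-linked genes. The library labelled female, 18 months, day 28, replicate 1 had 317 CPM of *Ly6i* (highest naive 17.3), 2312 CPM of *Ly6a* (136), 8039 CPM of *Ly6e* (3306), 7.02 CPM of *Ifitm1* (0), 155 CPM of *Ifitm2* (119) and 1870 CPM of *Ifitm3* (984). It had no counts of *Xist* and 388 CPM of the Y-linked genes. Since these transcripts go against the labels of both libraries, their other labels, age included, and so the naive group each is set beside, are in doubt.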

How the results depend on the processing

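Counts of members called at day 28 against naive (2 at 3 months, 2 at 9 months, 1 at 18 months) moved as follows. At 3 months they were 1 in females alone and 1 in one fit of all libraries. At 9 months they were 1 with DESeq2, with uncorrected counts (with or without the collection day), in either sex, in either collection day and in one fit. At 18 months they were 2 with no filter, in males, in either collection day, with a plain quasi-likelihood test and in one fit, and 0 in females. The replicate block kept the counts at 2, 2 and 1, and it changed no call. Same-numbered libraries had a mean correlation of -0.0121 (464 pairs, 44 over 0.1) against 0.0044 for 1348 other pairs, and 21 of 62 libraries correlated best with their own number.

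Counts of 0 became 1 or more in these settings. With no filter they were 2 for 9 and 18 against 3 months at day 28, and 1 for 18 against 3 months at day 12, for sex by day 12 at 3 and 9 months, for sex by day 28 at 3 months and for age by day 12. For 18 against 3 months they were 1 in one fit at day 12 and 1 in females at day 28. Sex by day 12 at 3 months gave 1 with DESeq2. Within the first collection day there were 2 for sex by day 12 and 2 for sex by day 28 at 18 months, 1 for age by day 12 and 2 for age by day 28, and within the second 4 for sex by day 12 and 1 for sex by day 28 at 9 months. The cause was not tested. With each library left out, the count was 1 to 2 at day 28 at 9 months, 0 to 1 for 18 against 3 months at day 12 and for sex by day 12 at 3 months, and 15 to 17 for the 17 log2 fold changes of members above 1 at day 12. In males alone the 18 against 3 months difference at day 28 reversed, to -0.0302 for *Ly6i* and -0.103 for *Ly6a*.

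Fits of 1 collection day hold groups of 1 library at each age, save for the second day at 18 months. Such groups are assumed to vary like the others. Over all genes, calls at day 28 (120, 93 and 62) were 216, 186 and 140 with no filter, 403, 261 and 380 with the plain test, 49, 52 and 0 in females, 78 and 15 in males at 3 and 9 months, 45, 150 and 1231 within the first collection day, 118 within the second at 18 months, and 67 and 106 in one fit at 3 and 18 months. At day 12, calls for 9 against 3 months (236) were 368 with DESeq2, 48 with uncorrected counts and no batch term, 208 with uncorrected counts and the collection day, and 449 without 9-month male replicate 2, and for 18 against 3 months (197) 462 with DESeq2 12 with uncorrected counts and no batch term and 100 with the collection day. Age by day 12 (108) gave 336 with DESeq2 0 with uncorrected counts and no batch term and 48 with the collection day. The second label of the library with 2 day labels was not tried where that library enters no comparison. Levels near the floor, such as *Ifitm1*, *Ifitm6* and *Ly6c1*, were limited by depth, and the floor covers counting error only.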
